A study of Arabidopsis thaliana with 14 samples.

Results

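Serial sections of whole seeds were profiled on 2 arrays, and their signal was compared here with a mixture of the 6 seed compartments that were cut from sections of the same stage. Non-negative weights of the 6 compartment mean intensities were chosen by least squares on the linear scale, so that their sum came as close as possible to the mean whole-seed intensity. All 22746 probe sets other than the array's controls entered the fit, and the 2 whole-seed arrays were set against 12 compartment arrays, 14 arrays in all. The seeds were Arabidopsis thaliana of the Ws-0 accession at the bending-cotyledon stage, with cotyledons 100 to 140 µm long, from plants kept in constant light to an age of 38 to 46 days. The groups were whole seeds, embryo proper, micropylar endosperm, peripheral endosperm, chalazal endosperm, chalazal seed coat and general seed coat, with 2 biological replicates each, all of the same genotype and all taken by laser microdissection from fixed, paraffin-embedded siliques. The labels do not say how many plants or seeds were pooled for an array, nor which parts beside the compartments, such as the funiculus, the whole-seed sections held. The micropylar endosperm arrays were grouped by their source and description, although their cell type field reads embryo proper. These samples were amplified from 2 to 5 ng of RNA and all others from 5 to 6 ng.

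A seed joins 3 genetically distinct parts. The diploid embryo grows into the next plant, the triploid endosperm feeds it, and the maternal seed coat encloses both. In Arabidopsis the endosperm is patterned into a micropylar region around the embryo, a peripheral layer and a chalazal region at the end where maternal nutrients arrive by way of the maternal chalaza. As its cotyledons bend, the embryo fills a growing share of the seed, its plastids are green, and storage protein and oil synthesis are under way.

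The values are probe set intensities on a linear scale. Their 2% trimmed mean, computed here for whole-seed replicate 1 alone, was 500. Every array is taken here as scaled by the authors to that value. A weight is therefore a fraction of a compartment's scaled signal, and a compartment with fewer cells cannot be told apart from one with less RNA per cell. The medians of the whole-seed arrays were 188.1 and 183.9, against 99.01 to 168.5 on the compartment arrays. The 100 brightest probe sets held 17.24% and 18.61% of the signal on the whole-seed arrays and 13.73% to 19.97% on the compartment arrays. As a measure of RNA integrity, the 3′ signal of GAPDH over its 5′ signal was 3.68 and 3.496 in whole seeds, against 2.165 to 7.495 on the compartment arrays. With 2 arrays a group, their number limits the precision of every value below.

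Whole seeds were fitted mainly by 3 compartments: the embryo proper, the peripheral endosperm and the general seed coat. The embryo proper had a weight of 0.598, the peripheral endosperm 0.3386 and the general seed coat 0.2435. The chalazal endosperm had 0.01972 and the micropylar endosperm 0.002238, and the chalazal seed coat was set to 0. As shares of the summed weight, the embryo proper took 49.75%, the 3 endosperm regions together 29.99% and the 2 seed coat regions together 20.26%. Fitted alone, whole-seed replicates 1 and 2 gave the embryo proper weights of 0.593 and 0.5933, the peripheral endosperm 0.302 and 0.3582, and the general seed coat 0.2369 and 0.2469. Their chalazal endosperm weights were 0 and 0.0566, a spread larger than the weight itself. The weights summed to 1.202, and to 1.153 and 1.255 for the single replicates, all above 1.

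The size of the weights depended on how much the brightest transcripts counted. The 100 probe sets brightest in whole seeds held 68.66% of the sum of squares. Without them the weights summed to 0.9735, with the embryo proper at 0.535, the peripheral endosperm at 0.1961 and the general seed coat at 0.1605. When every probe set counted by its relative error, the sum was 0.982 and all 6 compartments had a weight above 0, with the embryo proper at 0.447, the peripheral endosperm at 0.184, the general seed coat at 0.1686, the micropylar endosperm at 0.0826 and the chalazal seed coat at 0.04076. The embryo share of the summed weight stayed between 45.51% and 54.96% over these and the other weightings fitted, the endosperm share between 28.55% and 34.37% and the seed coat share between 16.49% and 22.55%.

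**Figure D1:**
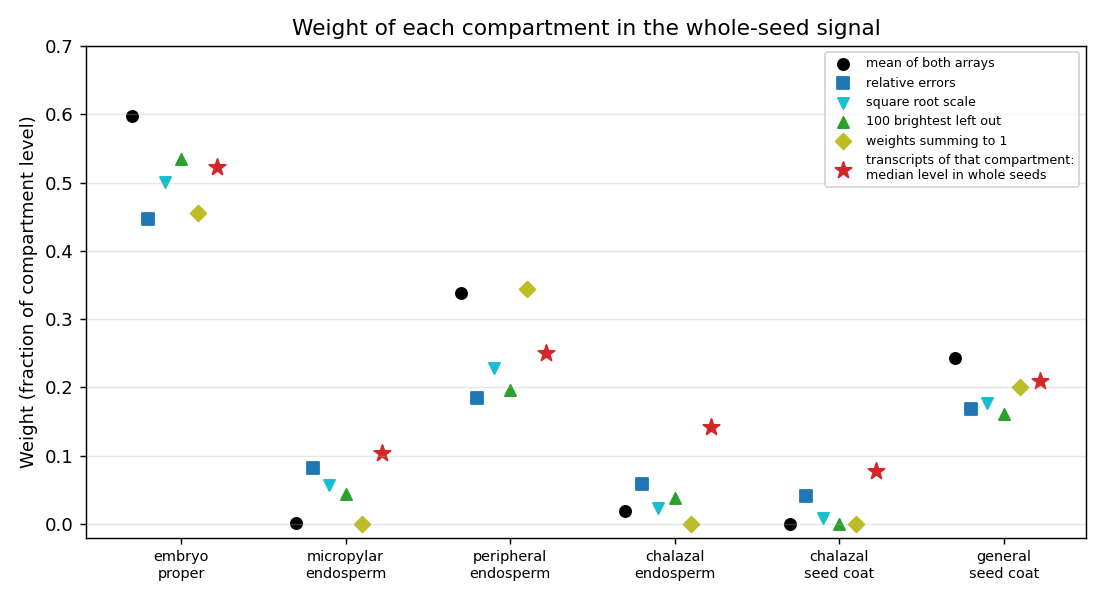
Weight of each of the 6 compartments in the whole-seed signal, as a fraction of the compartment's level (vertical axis), under 5 ways of fitting, with a star for the median level in whole seeds of transcripts enriched in that compartment. The embryo proper lies highest under every way of fitting (0.447 to 0.598), and the micropylar endosperm and both chalazal compartments lie lowest (0.0826 at most).

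The weights were chosen to match the same whole-seed values that the fit is described on here, so a closer match than by the plain mean or by a single compartment was built in on the linear scale, and the values that follow are descriptions. On that scale the mixture accounted for 89.86% of the variance across probe sets, and the plain mean of the 6 compartments for 79.89%. On the log2(value + 32) scale whole seeds correlated with the mixture at r = 0.9657 across probe sets, which are not independent and come from the same arrays. The plain mean reached 0.9447, and the closest single compartments were the micropylar endosperm at 0.9163 and the embryo proper at 0.9093. The lowest was the chalazal endosperm at 0.7583. The single whole-seed arrays correlated at 0.9542 and 0.9487, each with a mixture refitted to that same array, and with each other at 0.9385. When each compartment was fitted in the same way from the other 5, the fit accounted for 88.34% of the variance of the micropylar endosperm and 86.17% of that of the peripheral endosperm, but for only 62.53% in the embryo proper and 56.59% to 57.45% in the chalazal endosperm and the 2 seed coat regions.

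Few transcripts of whole seeds lay outside the range of the compartments. Of 14765 probe sets bright enough to be tested, 90.43% had a whole-seed mean between the lowest and the highest compartment mean. Limma called 1 probe set higher in whole seeds than in each of the 6 compartments, which is 0.00677% of those tested, and 2 lower than in each, 0.0135%. The 1 higher probe set carries no single gene name and was at 271.1 and 209.6 in whole seeds, against 6.232 to 65.7 on the compartment arrays (largest of 6 adjusted p = 0.0417). It was not called when whole-seed replicate 1 or 2, embryo replicate 1 or 2, micropylar endosperm replicate 1 or 3, chalazal endosperm replicate 1 or general seed coat replicate 2 was left out, which gave a count of 0. The count of 2 became 0 without whole-seed replicate 2 or embryo replicate 1, 4 without micropylar endosperm replicate 1, and 1 without whole-seed replicate 1, embryo replicate 2, micropylar endosperm replicate 3 or any 1 of the 4 seed coat arrays. By the same contrasts against the other 5 compartments, 409 were higher in the embryo proper (2.77%), 602 in the chalazal endosperm (4.08%), 412 in the chalazal seed coat (2.79%), 369 in the general seed coat (2.5%), 81 in the peripheral endosperm (0.549%) and 51 in the micropylar endosperm (0.345%). Both whole-seed arrays lay above all 12 compartment arrays for 156 probe sets (1.06%) and below all 12 for 145 (0.982%).

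Transcripts of a single compartment give the weights in another way, since the whole-seed level of such a transcript, as a share of its compartment's level, is that compartment's weight if no other compartment holds it. The probe sets were chosen by contrasts among the compartments, as enriched against each of the other 5 compartments with a mean over 1000. Whole-seed levels took no part in these contrasts, but the spread in limma came from all 14 arrays, whole seeds included. For the embryo proper, 245 such transcripts had a median whole-seed level of 52.34% (55.36% and 49.28% on replicates 1 and 2). The median was 25.05% over 67 transcripts of the peripheral endosperm and 20.89% over 292 of the general seed coat. It was 14.15% over 419 transcripts of the chalazal endosperm, 10.45% over 35 of the micropylar endosperm and 7.706% over 287 of the chalazal seed coat. The linear fit had given these last 3 compartments weights at or near 0, yet the median difference of their transcripts from the fit, on the log2(value + 32) scale, was -0.29 for the chalazal endosperm, -0.02 for the micropylar endosperm and 0.09 for the chalazal seed coat, against -0.30 over all probe sets tested. The fitted levels of these transcripts thus came mostly from the other compartments, where they were also measured at lower levels. For transcripts of the compartments that carried the fit, the same median lay further below 0. It was -0.42 for the embryo proper, -0.78 for the peripheral endosperm and -0.57 for the general seed coat. The quartiles of the chalazal endosperm transcripts were 5.05% and 27.43%, a wider spread than the 41.09% and 66.73% of the embryo proper in proportion to the median.

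**Figure D2:**
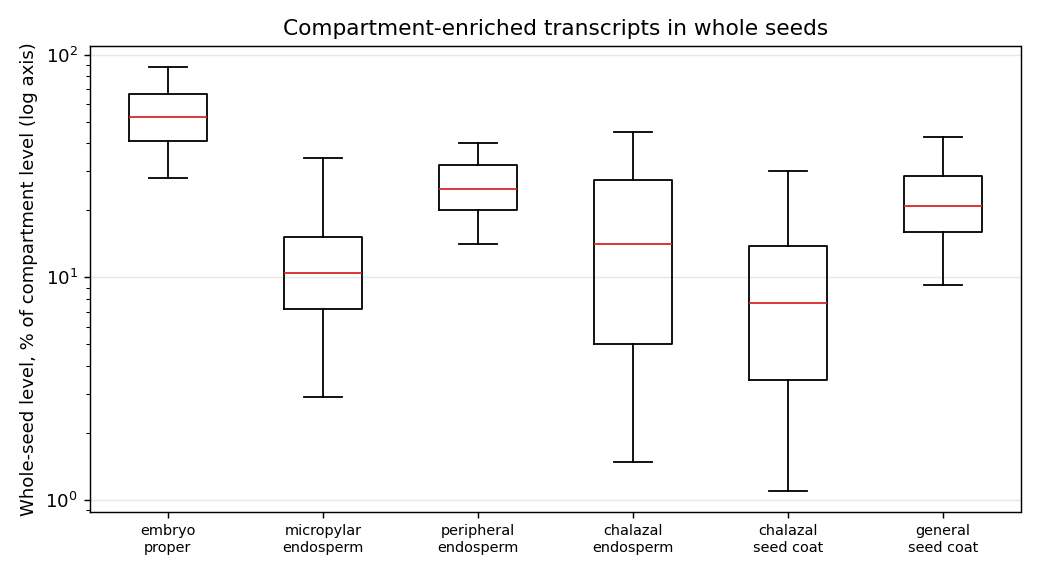
Whole-seed level of compartment-enriched transcripts as a percent of their level in that compartment (vertical axis, log scale), for the 6 compartments. Boxes span the quartiles, red lines are medians (52.34% for the embryo proper, 7.706% for the chalazal seed coat), and whiskers reach the outermost values within the 5th and 95th percentiles.

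Among the brightest embryo transcripts, AT1G04660, which encodes a glycine-rich protein, was brighter in whole seeds than in the embryo itself. It was at 110800 and 107900 on the whole-seed arrays and at 74440 and 67780 on the embryo arrays, and at 14560 or lower on all others. Its mean in whole seeds was 153.8% of that in the embryo proper. In limma the log2 difference from the embryo proper was 0.62 ± 0.42 (SE) and did not pass (largest adjusted p over the compartments = 0.463). The other 3 of the 4 brightest stayed below their embryo level: AT4G29020 at 83.52%, AT2G37660 at 50.38% and the plastid ribosomal protein gene rpl16 at 49.02%. AT1G04660 was also the brightest named transcript of whole seeds, with a difference from the fit of 1.24 ± 0.40 (SE) on the log2(value + 32) scale that did not pass in limma (adjusted p = 0.147).

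The brightest endosperm transcripts lay on both sides of the median of their compartment's set. BGLU44, a beta-glucosidase of the peripheral endosperm, was at 4766 and 6218 in whole seeds, against 19040 and 14890 in that compartment, or 32.37% of its mean. AT1G50650, known as the embryo sheath peptide gene KERBEROS, was at 30.52% of its peripheral endosperm level, with 3261 and 5922 in whole seeds and 13770 and 16320 in the peripheral endosperm. The other 2 of the 4 brightest there were AT3G11930 at 31.72% and AT5G12460 at 19.41%. In the micropylar endosperm DI21, a drought-induced gene, was at 760.3 and 753.5 in whole seeds, against 7597 and 7250, or 10.2%, and the other 3 of its 4 brightest were between 8.879% and 13.1%. Of the chalazal endosperm, the subtilase gene SBT4.13 was at 255.3 and 947.9 in whole seeds, against 32130 and 45580, or 1.548%. The dehydrin gene AT1G54410 was at 3060 and 5498, against 92440 and 71830, or 5.209%. The other 2 of the 4 brightest of that compartment were Hsp70-2, a chaperone, at 27.47%, with 10030 and 10600 in whole seeds and 43750 and 31360 in the chalazal endosperm, and AT5G40155 at 2.835%. Of the 4, Hsp70-2 alone lay above the set's median.

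The brightest general seed coat transcripts held a larger share of their level in whole seeds than those of the chalazal seed coat, as the medians of the 2 sets did. AT1G62070 was at 23720 and 24700 in whole seeds, against 90740 and 62630 in the general seed coat, or 31.57%. UGT78D1, a flavonol rhamnosyltransferase, was at 12020 and 10770, against 34900 and 53060, or 25.91%. AT5G60630 was at 18.73% and GILT, a thiol reductase, at 16.72%. Of the chalazal seed coat, RR22, a response regulator of the cytokinin phosphorelay family, was at 727.3 and 289.8 in whole seeds, against 18990 and 24540, or 2.336%. The transcription factor gene bZIP44 reached 10.37% and AT1G62480 reached 3.609%, while AT3G10590 was at 0.9536%.

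Most transcripts lay slightly below the linear fit. For each probe set the difference was the mean of log2(whole seeds + 32) over the 2 arrays minus log2(fitted mixture + 32). The mixture was built from compartment means taken before the log. Where the 2 whole-seed arrays disagree, the difference is therefore lower than one from their mean intensity. Its standard error came from the limma fit over all 14 arrays. The median difference was -0.30, and 75.09% of the tested probe sets were below 0. The differences below are as fitted, so -0.30 is the level around which they lie. With the tested probe sets split into 10 bins by fitted level, the median was -0.02 in the dimmest bin, -0.46 in bin 9 and -0.31 in the brightest. The same median was -0.02 for the weights found without the 100 brightest probe sets and -0.07 for those by relative errors. Differences within 1 log2 unit covered 90.76% of the tested probe sets. The differences of the 2 whole-seed arrays from the fit correlated at r = 0.4948 across probe sets, a value that includes what the 2 arrays share through the same fitted mixture.

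**Figure D3:**
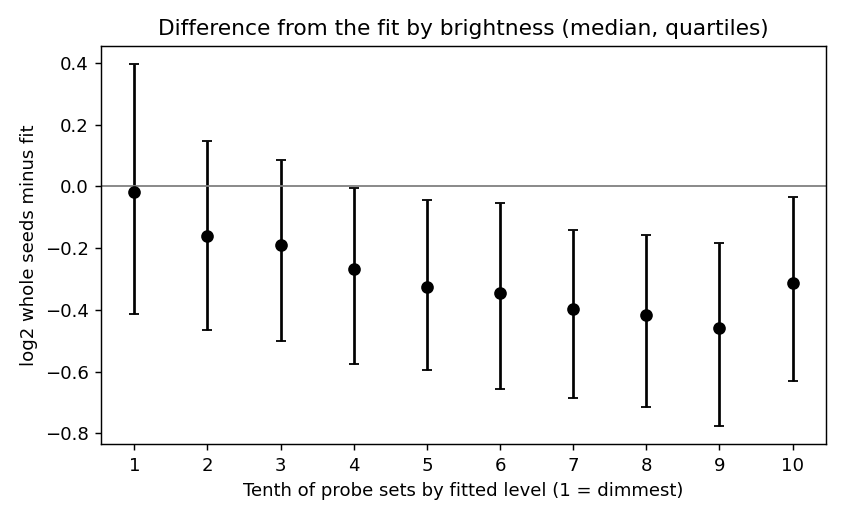
Median difference between whole seeds and the fitted mixture (vertical axis, log2 scale) in 10 bins of the tested probe sets by fitted level (horizontal axis, dimmest at the left), with bars from the lower to the upper quartile. The median is -0.02 in the dimmest bin and -0.46 in bin 9.

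The sugar exporter gene SWEET10 was the 1 probe set called above the fit, 0.00677% of those tested. SWEET proteins carry sucrose out of cells along its gradient. SWEET10 was at 692.2 and 643 in whole seeds and at 15940 and 16370 in the chalazal seed coat, while the other 10 compartment arrays lay between 3.968 and 105.3. Both whole-seed arrays were above all of those 10 and far below the chalazal seed coat. The mean in whole seeds was 4.133% of that in the chalazal seed coat. The fit, which gave that compartment no weight, predicted 16.6, a difference of 3.85 ± 0.45 (SE; adjusted p = 0.000494 in limma). The difference was -0.02 with the weights by relative errors, where the chalazal seed coat had a weight of 0.04076, and the call was then lost (adjusted p = 0.998). It was also lost on the square root scale, and with equal weights for the 6 compartments the difference was -1.98. The number of probe sets above the fit was 4 without peripheral endosperm replicate 1, 8 without peripheral endosperm replicate 2, 2 without either chalazal endosperm array and 4 without general seed coat replicate 1. At an unadjusted p under 0.05, 102 probe sets lay above the fit and 1992 below it.

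Whole seeds fell below the mixture at 159 probe sets, 1.08% of those tested, of which 91 carry the name of a single gene. Their median difference was -1.47, with a median level of 827.3 in whole seeds against a fitted 2476. The whole-seed mean was lower than that of every compartment for 94 of them, and both whole-seed arrays lay below all 12 compartment arrays for 63. This count depended on the fit. It was 69 by relative errors, 29 without the 100 brightest probe sets and 23 once the differences were centred on their median, an alternative added after the data were seen. It was 5 without whole-seed replicate 2, 39 without whole-seed replicate 1, 40 and 34 without embryo replicates 1 and 2, and 424 and 279 without peripheral endosperm replicates 1 and 2. A set of 21 probe sets, 9 with a single gene, was called below under all 7 of the weightings and scalings compared, which were the linear fit, the fit without the 100 brightest, relative errors, the square root scale, weights summing to 1, quantile normalization and the median-centred differences.

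**Figure D4:**
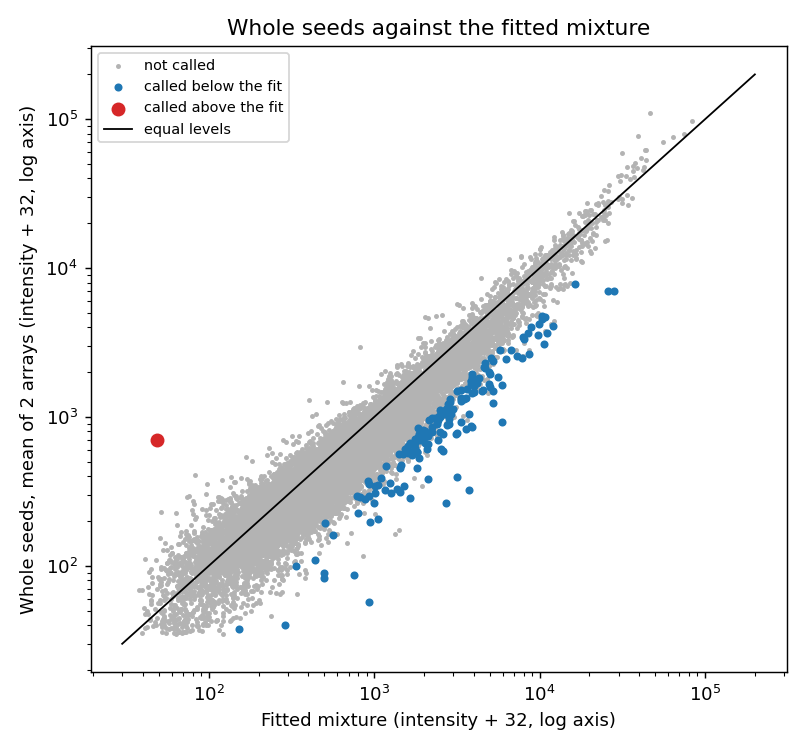
Mean intensity + 32 of whole seeds (vertical axis, log scale) against the fitted mixture + 32 (horizontal axis, log scale) for the tested probe sets, with the line of equal levels. Blue points are the 159 probe sets called below the fit and the red point is SWEET10, at 667.6 in whole seeds against a fitted 16.6.

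The 2 named transcripts furthest below the fit respond to iron supply. AT1G47400 encodes a small peptide of the IRONMAN family, which promotes iron uptake when iron is short, and AT5G05250 is induced by iron deficiency. AT1G47400 was at 8.659 and 42.58 in whole seeds, against 7346 and 5163 in the chalazal seed coat and 3306 and 1641 in the peripheral endosperm. The fitted level was 897.5, and the difference was -4.08 ± 0.68 (SE; adjusted p = 0.0078 in limma). AT5G05250 was at 242.7 and 337.6 in whole seeds, against 10660 and 4652 in the peripheral endosperm, 13220 and 17890 in the chalazal seed coat and 2121 and 5410 in the general seed coat. Only the embryo arrays, at 89.57 and 180.4, lay lower. Its fitted level was 3710 and the difference -3.55 ± 0.39 (SE; adjusted p = 0.000295). The whole-seed arrays of AT1G47400 overlapped the embryo arrays, at 21.09 and 21.43. AT5G05250 was called under every alternative run, while the call of AT1G47400 was lost when either whole-seed array was left out (largest adjusted p = 0.165).

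The next transcripts are given one by one, and no gene group was tested among them. AT5G47690, a PDS5-type cofactor of the cohesin ring that holds sister chromatids together, was at 1013 and 773.1 in whole seeds, against 5627 and 6477 in the embryo proper and 5288 and 5371 in the peripheral endosperm. Its difference from the fit was -2.70 ± 0.32 (SE; adjusted p = 0.000494). Both whole-seed arrays lay below every embryo, micropylar and peripheral endosperm array and overlapped those of the chalazal endosperm and chalazal seed coat. The call was lost without whole-seed replicate 2 (adjusted p = 0.0659). AT2G16860, related to the splicing factor SYF2, was at 269.7 and 359.4 in whole seeds, against 580.5 to 1814 on the 12 compartment arrays, a difference of -2.15 ± 0.36 (adjusted p = 0.0078). That call was lost without either whole-seed array or without embryo replicate 2. AT2G44200, which resembles a splicing co-factor named CIR, was at 241.4 and 314.5 in whole seeds, against 670.7 to 1625 on the compartment arrays, so the groups did not overlap. It was the 1 named gene lower than in each of the 6 compartments, with a gap to the lowest of -1.28 ± 0.39 (SE; largest of 6 adjusted p = 0.0245). The other probe set lower than in each carries no single gene name. It was at 85.14 and 23.81 in whole seeds, against 254.8 to 1241 on the compartment arrays. Its gap to the lowest was -1.84 ± 0.57 (SE; largest of 6 adjusted p = 0.0265 in limma).

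With AT1G47400, AT5G05250, AT5G47690 and AT2G16860, the following made up the 15 named transcripts furthest below the fit. VIIIB, a class VIII myosin, was at 322.2 and 24.55 in whole seeds, against 977.9 and 865 in the embryo proper, and its replicates differed more than those of AT2G16860. AT2G35880 and AT5G15510, both of the TPX2 family of microtubule-binding proteins, had differences of -2.16 ± 0.36 and -2.08 ± 0.44. AT2G35880 was at 1029 and 653.6 in whole seeds, against 10940 and 7381 in the peripheral endosperm. AT2G21380, a kinesin, had a difference of -2.07 ± 0.46 (adjusted p = 0.0344). Over 27 alternatives the call was lost in 8 for VIIIB, in 11 each for AT5G15510 and AT2G21380 and in 2 for AT2G35880. The remaining 7 were AT1G70650, AT4G15750, AT5G16730, AT2G46200, AT3G55060, AT4G08310 and AT1G74250, between -2.85 and -2.11. Of these AT4G15750, which belongs to a family of pectin methylesterase inhibitors, was at 370.7 and 132.8 in whole seeds, against 4801 and 4260 in the general seed coat. Of the 15, 13 lost their call without whole-seed replicate 2 and 8 without whole-seed replicate 1.

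The 9 single-gene transcripts below the fit under all 7 weightings and scalings were AT1G47400, AT5G05250, AT5G47690, AT5G16730, AT2G16860, AT2G44200, AT2G40430, AT3G56360 and AT5G23890, of which the last 3 were named after their values were seen. AT3G56360 was at 7212 and 6842 in whole seeds, against 69120 and 95810 in the chalazal seed coat, 57060 and 53820 in the general seed coat and 5392 and 6972 in the embryo proper. Its whole-seed arrays overlapped those of the embryo alone, and its difference from the fit was -1.88 ± 0.19 (SE; adjusted p = 0.000197 in limma). AT2G40430, which encodes a nucleolar protein of ribosome formation, averaged 734.8 in whole seeds, against 721.1 in its lowest and 3696 in its highest compartment. AT5G23890 averaged 3537 in whole seeds, against 3707 in its lowest and 8862 in its highest compartment.

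**Figure D5:**
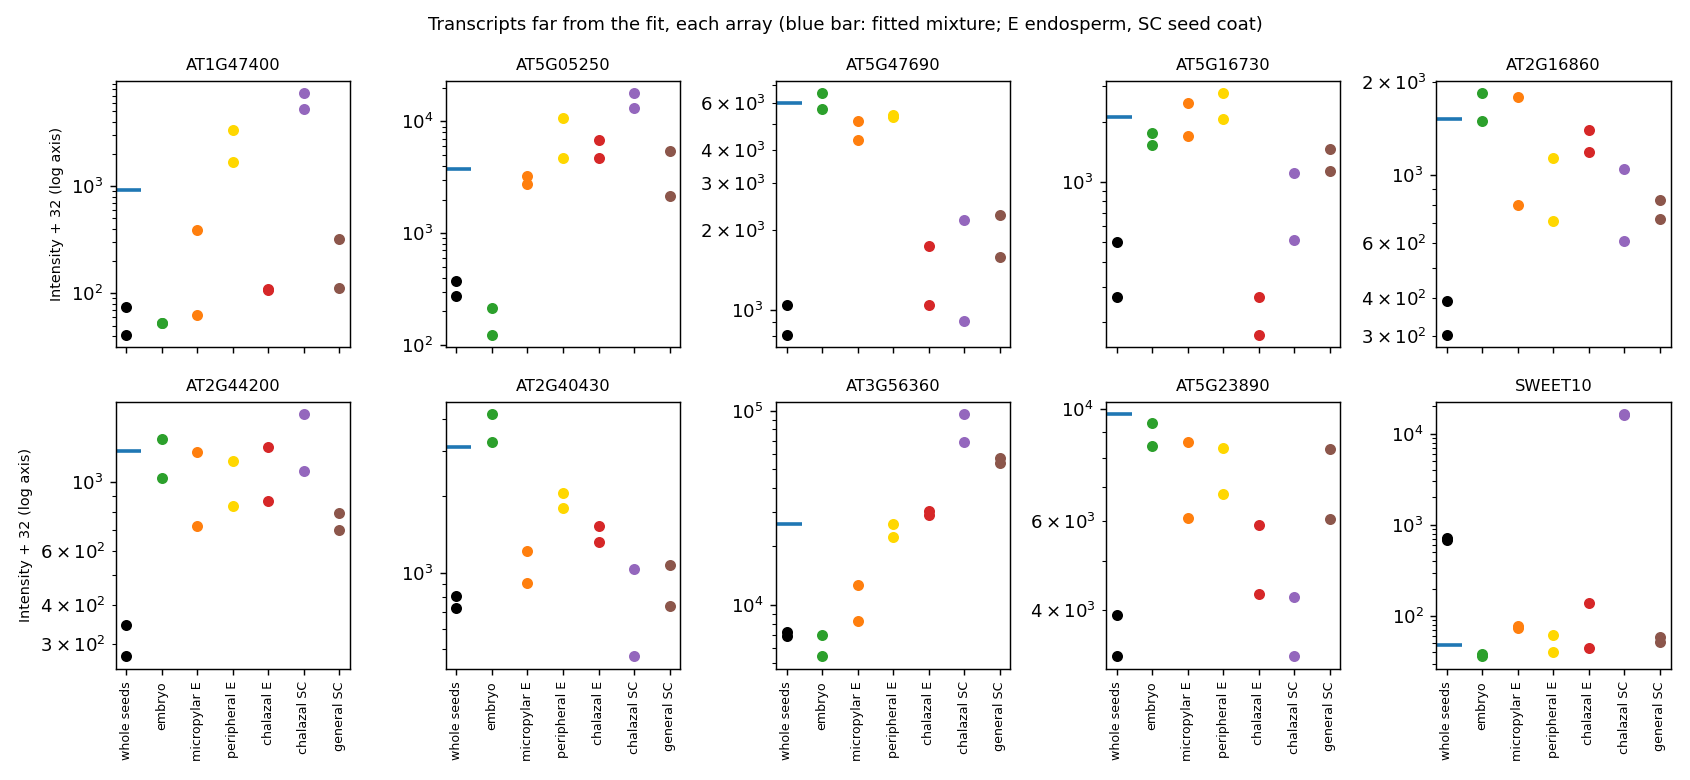
Intensity + 32 (vertical axes, log scale) on each array for the 9 named transcripts called below the fit under all 7 weightings and scalings and for SWEET10, with whole seeds at the left, the 6 compartments after it and a blue bar for the fitted mixture. For AT2G44200 the whole-seed arrays, at 241.4 and 314.5, lie below all compartment arrays.

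Few of the listed genes of seed filling were tested. Most of the others could not be matched by name to any singly named probe set, so their brightness was not the reason. Of 14 storage protein genes 6 were matched and 5 tested, and of 6 oil body genes 2 were matched and tested. Of 10 genes of fatty acid and oil synthesis 2 were matched and tested, and of 10 maturation regulators 2. None was called, where the background was 0.00677% above and 1.08% below. With so few genes that is no result about the lists. Their median differences were -0.01, 0.49, 0.11 and -0.68, against -0.30 over all probe sets. The oleosin gene OLEO3 was at 47950 and 48700 in whole seeds, against 34660 to 36000 in the embryo and 37530 to 38070 in the peripheral endosperm, and its difference was 0.40 ± 0.37. PAP85, a vicilin-like storage protein, was at 1515 and 1296 in whole seeds, against 1924 and 1892 in the embryo. AT2G18540, also of the vicilin type, was at 5721 and 2983, against 17200 and 18920 in the embryo and 6624 and 25270 in the micropylar endosperm, with a difference of -1.56 ± 0.71 (adjusted p = 0.329). EEL, a bZIP factor of late embryo development, was at 8517 and 7156 in whole seeds. It was at 12500 and 12910 in the embryo and 19170 and 19010 in the micropylar endosperm, with a difference of -0.76 ± 0.26. BZIP53 was at 1930 and 1473 in whole seeds, against 1073 and 1445 in the embryo and 5549 and 5289 in the chalazal seed coat. Its difference was -0.60 ± 0.24.

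Late embryogenesis abundant genes, whose products protect drying cells, had the lowest median of the lists. Of 12 listed genes 6 were matched by name and 3 tested. None was called, where the background was 0.00677% above and 1.08% below. Their median difference was -1.39. AT5G44310 was at 2607 and 2479 in whole seeds and at 13030 and 13310 in the embryo proper, with 1960 or less on all other compartment arrays. Its difference was -1.63 ± 0.71 (adjusted p = 0.295). AT3G17520 was at 150.4 and 88.07 in whole seeds, against 353.5 and 714.2 in the embryo. LEA4-5 was at 585.9 and 543 in whole seeds, with 142.2 to 546.4 on the compartment arrays and a difference of 0.46 ± 0.34.

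Few nuclear photosynthesis and cell division genes were tested, since the others could not be matched by name to a singly named probe set. Of 37 listed nuclear photosynthesis genes 6 were matched, and of 16 cell division genes 3, and all of these were tested. None was called, where the background was 0.00677% above and 1.08% below. With so few genes that is no result about the lists. Their median differences were -0.43 and -0.12. PSAN, a subunit of photosystem I, was at 6527 and 5300 in whole seeds, against 11450 and 12680 in the embryo and 10.39 to 126.6 in the chalazal endosperm. RCA, rubisco activase, was at 1839 and 1473, against 3428 and 4012 in the embryo. PRL, a subunit of the replication helicase, was at 1223 and 1236, against 1914 and 1882. The mitotic kinase gene AUR1 was at 976.4 and 1112 in whole seeds, against 1132 and 1102 in the embryo and 1158 and 1238 in the peripheral endosperm.

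Plastid-encoded transcripts were the largest list and had a median difference nearer 0 than that of all probe sets. They were bright, with intensities that summed to 972200 and 954400 in whole seeds. The weights were fitted to these transcripts too, and the 100 brightest probe sets held 68.66% of the sum of squares. The part of the fit and of brightness in this median was not tested. Of 69 tested none was called above the fit and 1 below, a count near the background of 1.08% below and no result about the list, and 38 differences were below 0 and 31 above, with a median of -0.04. The 1 called below was rps3, a ribosomal protein gene, at 3499 and 3305 in whole seeds, against 10110 and 10340 in the embryo proper, with a difference of -1.20 ± 0.23 (adjusted p = 0.0136), a call lost without the 100 brightest, by relative errors, on the square root scale, with weights summing to 1, with quantile normalization, after centring, and without either whole-seed or either embryo array. The neighbouring ribosomal protein genes rps19 and rpl22 had differences of -0.92 ± 0.26 and -0.90 ± 0.23 without passing. psbF, for a subunit of photosystem II, was at 67250 and 73290 in whole seeds, among the 3 brightest named transcripts there, with 19600 to 77840 on the compartment arrays. The third of these 3 was the lipid transfer protein gene AT5G38170, at 89950 and 106100, against 16260 to 165400.

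Seed coat and endosperm lists were also mostly untested, again mainly for want of a match by name. Of 15 listed mucilage genes 4 were matched and tested, and of 16 flavonoid genes 2. Of 14 endosperm genes 5 were matched and 3 tested. None was called, where the background was 0.00677% above and 1.08% below. With so few genes that is no result about the lists. Their median differences were -0.35, -0.36 and -0.32. ARA12, the mucilage subtilase SBT1.7, was at 11210 and 11140 in whole seeds, against 31180 and 34460 in the general seed coat and 15770 and 20750 in the chalazal seed coat. AT2G22900, known as MUCI10, was at 2302 and 1832, against 10400 and 13290 in the general seed coat, a difference of -1.06 ± 0.31 (adjusted p = 0.104). BAN, the anthocyanidin reductase, was at 177.7 and 140.1, against 2617 and 2259 in the chalazal seed coat and 765.5 and 538 in the general seed coat. The sugar exporter gene SWEET11 was at 3468 and 4922, against 12520 and 10600 in the peripheral endosperm, and its difference was -0.02 ± 0.43. SAG29, also called SWEET15, was at 1511 and 1774, against 4803 and 2752 in the peripheral endosperm and 5625 and 3911 in the general seed coat.

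Stress response genes were few as well. Of 16 listed heat shock genes 5 were matched by name and 2 tested. Of 12 touch and wound response genes 2 were matched and tested. None was called, where the background was 0.00677% above and 1.08% below. With so few genes that is no result about the lists. AT1G54050 and AT1G53540 had differences of -0.57 and 0.05, and STZ and GRX480 had 0.12 and 0.08. Markers of the funiculus and vascular tissue and of the suspensor, which whole-seed sections can hold and the compartments were not cut as, had no probe set with a single gene name here, so their part in the whole-seed signal was not tested.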

How the data were processed

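Affymetrix ATH1 arrays, each with 22810 probe sets, were hybridised with amplified, biotin-labelled cDNA, per the labels. The deposited values are intensities on a linear scale, and per the submitters' processing notes the authors made them with GCOS, of unstated version. The 64 control probe sets were left out. Of the others, 13436 have 1 gene name from the platform annotation that matched RefSeq, and 77 have 1 that did not. Another 503 have several and 8730 have none, and these were named by probe set. The mean of the 2 whole-seed arrays was fitted by exact non-negative least squares on the 6 compartment means, without an intercept.

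Tests used limma 3.58.1 in R 4.3.3 (lmFit, eBayes with trend) on log2(value + 32), over all 14 arrays in one fit with 7 residual degrees of freedom. They covered the 14765 probe sets that exceeded the median of the array on each of the 2 arrays of some group. The difference from the fit had a delta-method standard error that includes the compartments' spread with the weights taken as given, and Benjamini-Hochberg adjustment over all probe sets tested. A call required an adjusted p under 0.05, a difference of at least 1 and both whole-seed arrays on that side. A level was outside the compartments if all 6 contrasts passed. The scripts were tested on simulated data, with weights refitted without the altered probe sets or taken as known. That test does not check false calls where the weights are fitted to all probe sets, as here. The labels call the arrays biological replicates. The samples were treated as unpaired. Differences between the 2 arrays of a group correlated at -0.0616 to 0.04457 over 21 pairs of groups, so no shared replicate effect was seen. The micropylar endosperm arrays are numbered 1 and 3, so their pairs with other groups do not match by number.

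Picked for naming were up to 15 single-gene probe sets called furthest above and below the fit and those outside the compartments. So were the 4 brightest enriched ones of each compartment, up to 4 members of each list and the 3 brightest in whole seeds. The text does not give all of these by name. Plastid-encoded genes were taken by RefSeq chromosome, and no mitochondrion-encoded gene was matched. The comparison, its members and the gene lists were chosen with earlier results of these data known. Alternatives covered the way of fitting, normalization, pseudocount, filter, threshold, replicate number as a block and leaving out each array. No sequences were used here.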

Additional observations from a re-analysis of the deposited data

How the results depend on the processing

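The embryo weight of 0.598 became 0.535 without the 100 brightest probe sets, 0.447 by relative errors, 0.501 on the square root scale, 0.4551 with weights summing to 1, 0.5098 after quantile normalization and 0.5985 with the micropylar endosperm left out of the mixture. In the first 5 of these settings, in the same order and where it moved, the summed weight was 0.9735, 0.982, 0.9965, 1 and 1.094. The general seed coat had 0.1605, 0.1686, 0.1767 and 0.2012 in the first 4. Without the 100 brightest, by relative errors, on the square root scale and after quantile normalization, the peripheral endosperm had 0.1961, 0.184, 0.228 and 0.2603, and the micropylar endosperm had 0.04387, 0.0826, 0.0572 and 0.07187. The chalazal seed coat had 0.04076 by relative errors and 0.009458 on the square root scale. Probe sets above the fit numbered 2 without the 100 brightest, by relative errors, without the filter, by adjusted p alone and after centring, 5 with log2(value + 100), 9 with weights summing to 1 and 107 with equal weights. Those below numbered 29 without the 100 brightest, 69 by relative errors, 32 on the square root scale, 36 with weights summing to 1, 650 with equal weights and 23 after centring. The 1 call in the gene lists became 0 without the 100 brightest, by relative errors, on the square root scale, with weights summing to 1, after quantile normalization and after centring, and 11 with equal weights. Probe sets above every compartment numbered 3 without the filter, 0 with a pseudocount of 1 or after quantile normalization and 2 with a pseudocount of 100, and those below every compartment 5 after quantile normalization, 1 with log2(value + 100) and 4 by adjusted p alone. The main fit treated the samples as unpaired, and the replicate block gave 0 above and 0 below every compartment, 1 above the fit and 153 below it. SWEET10 turned to -0.01665 by relative errors and -1.98 with equal weights. The share of its level at which the median enriched transcript stood in whole seeds moved to 57.21% for the embryo proper and 6.242% for the chalazal seed coat after quantile normalization, and with a higher minimum mean in the compartment to 6.058% for the chalazal and 19.48% for the general seed coat. Joining the micropylar and peripheral endosperm, added after the data were seen, gave 33.84% over 181 transcripts. The causes of these shifts were not tested.

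With each array left out in turn, the weights ranged over 0.5826 to 0.6117 for the embryo proper, 0 to 0.05532 for the micropylar, 0.2884 to 0.3605 for the peripheral and 0 to 0.0566 for the chalazal endosperm, and 0.2317 to 0.252 for the general seed coat, and their sum over 1.153 to 1.255. The correlation with the fit was 0.9487 to 0.9663. Calls ranged from 1 to 8 above the fit, from 5 to 424 below it, from 0 to 1 in the gene lists, from 0 to 1 above and from 0 to 4 below every compartment. The median shares were 49.28% to 55.52% for the embryo proper, 8.183% to 14.17% for the micropylar, 22.52% to 28.32% for the peripheral and 11.16% to 15.58% for the chalazal endosperm, and 5.677% to 8.104% for the chalazal and 19.15% to 21.25% for the general seed coat. With 2 arrays a group, a left-out array leaves its group 1 array, assumed to vary like the others. Probe sets near background limit what can be read from dim transcripts.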

Other observations

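The defensin-like gene LCR69 lay above the fit without a call, and it was singled out after its values were seen. Its mean in whole seeds was 59270, and its difference from the fit was 0.90 ± 0.20 (SE; adjusted p = 0.032 in limma), short of the size required for a call. The difference was 1.41 without the 100 brightest probe sets, 1.28 by relative errors, 1.23 on the square root scale and 1.20 after centring, and it was called in each of these 4 settings. It was not called with weights summing to 1, after quantile normalization or with the micropylar endosperm left out of the mixture.

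The 159 probe sets below the fit were highest in the embryo proper for 48 (30.19%), against 19.76% of all tested, and in the chalazal endosperm for 23 (14.47%), against 24.31%. The 91 with a single gene had a median gene span of 3033 bases, against 2319 bases over the 8133 of 8175 tested single-gene probe sets with a span in RefSeq. Of the 159, 58 lay in bin 9 and 65 in bin 10, the brightest, of the 10 bins by fitted level. The fitted level itself rests on weights of 0.598 for the embryo proper and 0.01972 for the chalazal endosperm. The highest compartment of a probe set and its room to fall below the fit are therefore not independent. The part of the weights, brightness and gene length in these calls was not tested.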
